A study of Mus musculus with 6 samples.

Results

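The genes described here build and regulate the DNA replication machinery: 45 genes that load the replicative helicase at origins, run the replication fork, make deoxyribonucleotides or drive the passage from G1 into S phase. They were listed by symbol for their known roles, and all 45 were found among the 32061 genes of the deposited count table. By role, 15 belong to origin licensing, 22 to the fork, 4 to nucleotide synthesis and 4 to G1/S regulation. Messenger RNA was measured in mouse biliary epithelium, the lining of the bile ducts, which had been picked as ducts from liver, grown as organoids in gel and then spread on collagen-coated plates. In 3 samples the cells had received 4OHT and are called cilia depleted. In the other 3 samples the cells had not received it and are called cilia competent. 4OHT commonly stands for 4-hydroxytamoxifen, which activates Cre recombinases fused to an estrogen receptor domain. The labels name neither the deleted gene, the Cre driver, the mouse strain nor the age of the animals, and since all samples with 4OHT are the cilia-depleted ones, effects of the drug and of cilium loss cannot be told apart. Whether the 3 samples of a group are separate cultures or animals is not stated either. The p-values therefore reflect the spread between these samples alone, and that spread may be technical.

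DNA replication is prepared in G1, when the origin recognition complex ORC, CDC6 and CDT1 load the ring-shaped MCM2-7 helicase onto DNA, a step called licensing that geminin blocks by binding CDT1. At the entry into S phase, CDC45 and GINS join MCM2-7 to form the active helicase, and primase, the replicative polymerases, the sliding clamp PCNA and its loader RFC assemble behind it. Ribonucleotide reductase, thymidylate synthase and thymidine kinase supply the DNA precursors, and cyclin E and the E2F transcription factors switch many of these genes on. In healthy liver most biliary cells rest outside the cycle, and they re-enter it after duct injury or in organoid culture.

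Total counts were 26293486 to 36998935 in the depleted samples and 32199606 to 36093068 in the competent samples. Levels are given as CPM, counts relative to library size after scaling between libraries by the TMM method. At these depths 3 counts equal 0.0797 to 0.119 CPM, a floor that covers counting error only. Wdr35, a cilium transport gene that the labels do not name and that was taken from knowledge of the study, had 26.2 to 29.3 CPM in depleted cells and 31.9 to 35.6 CPM in competent cells (log2 change -0.25, adjusted p = 0.00245), but reads summed over all exons cannot show whether an exon is missing. The 9 biliary markers listed summed to between 14400 and 15500 CPM in depleted samples and between 16800 and 17700 CPM in competent samples. The 7 hepatocyte markers summed to between 16 and 17.5 CPM in depleted samples and between 19 and 26.4 CPM in competent samples. The 7 fibroblast or stellate markers summed to 2.78 to 3.57 CPM in depleted and 1.27 to 1.57 CPM in competent samples, nearly all of it Col1a1, and Col1a2, Col3a1 and Lum had 0 counts in every sample. The 5 endothelial markers summed to at most 0.499 CPM in depleted and 0.159 CPM in competent samples. The 7 immune markers summed to 45.5 to 51.3 CPM in depleted and 50.6 to 50.8 CPM in competent samples, of which Csf1r made up most, while the pan-leukocyte gene Ptprc had at most 0.312 CPM. The part of other cells in the results below was not tested.

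Depletion of cilia went with lower mRNA of nucleotide synthesis genes and cyclin E, and higher mRNA of some origin-binding and polymerase genes. The sum of MCM2-7 helicase mRNA was nearly equal, although 4 of its 6 genes fell once a trend with transcript length was removed. All 45 genes passed the filter on low counts. With edgeR's quasi-likelihood test and Benjamini-Hochberg adjustment over all genes, which is the test behind every adjusted p given here unless another tool is named, 11 genes rose, 21 fell and 13 did not pass at an adjusted p below 0.05. Of the genes tested over the whole table, 69.2% were called, 34.9% higher and 34.3% lower in depleted cells. The members called were 71.1%, with 24.4% higher and 46.7% lower, so the total lay near the background. Groups did not overlap for 34 members (75.6%), against 72.5% of all genes tested. Changes were small. A call with a change of at least 1.5-fold was reached by 9 of the 45 members, against 28.4% of all genes, and above 2-fold only by Ccne1 (2.22%), against 9.87%. The median log2 change of the members was -0.04, and that of all genes was -0.01. In bulk RNA, fewer cells in S phase and less of these mRNAs per cell cannot be told apart.

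The functional groups differed in their counts. Of 15 licensing genes, 5 rose and 3 fell, while 7 missed the threshold, and their median log2 change was 0.13. The 22 fork genes had 5 that rose (22.7%), 12 that fell (54.5%) and 5 that missed it, around a median of -0.19. All 4 nucleotide genes fell, with a median of -0.47. Among the 4 G1/S regulators 1 rose, 2 fell and 1 missed it, around a median of -0.31. Over all genes tested, 34.9% rose and 34.3% fell. With a trend along transcript length removed, 6 licensing genes rose (40.0%) and 5 fell (33.3%), and 4 fork genes rose (18.2%) and 8 fell (36.4%). Of all genes, 33.6% then rose and 35.0% fell, so the share of fork genes that fell was near that of all genes. For a measure of spread, the median over a group's genes was taken in each sample, on log2(CPM + 0.5) relative to each gene's competent mean. The SDs of these medians among depleted and among competent samples were combined as the root of their summed squares. The result was 0.021 for licensing, 0.055 for the fork and 0.086 for the nucleotide genes. It was 0.102 for G1/S regulators and 0.043 over all 45 members. It is not a standard error of the median log2 change. The median log2 changes describe the listed genes, and no test was made between the groups.

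**Figure D1:**
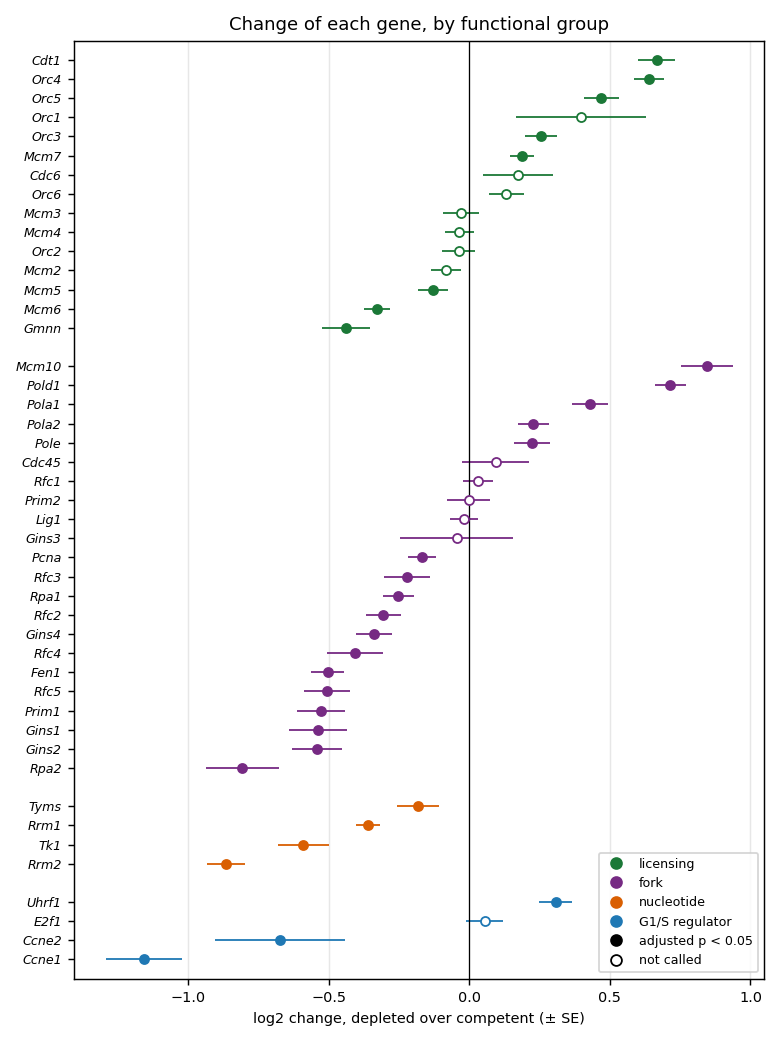
Log2 change, depleted over competent, of each of the 45 genes (x axis) with its SE as a bar, arranged by functional group; filled points passed an adjusted p below 0.05 and open points did not. All 4 nucleotide genes lie left of 0, licensing genes spread from -0.44 to 0.67 and fork genes from -0.81 to 0.85.

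Among licensing genes, 3 of the 6 subunits of ORC rose and 0 fell. ORC marks origins and is the platform on which the helicase is loaded. Orc4 (chromosome 2, 48902824 to 48950277, GRCm38) had 73.1, 78.1 and 82.1 CPM in depleted samples, against 52.6, 48.0 and 49.4 CPM in competent samples. The groups did not overlap, and Orc4 rose 1.56-fold (log2 change 0.64, SE 0.0541, adjusted p = 1.92e-07). Orc5 had 19.6, 21.3 and 21.1 CPM in depleted samples, against 14.7, 14.9 and 15.2 CPM in competent samples, a rise of 1.39-fold (adjusted p = 1.81e-05) with every depleted sample above every competent one. Orc3 had 28.6, 28.9 and 26.8 CPM in depleted samples, against 23.0, 24.5 and 23.2 CPM in competent samples. Orc3 thus rose without overlap, by 1.19-fold (adjusted p = 0.00129). Orc6 had 23.5, 22.5 and 25.2 CPM in depleted samples, against 21.6, 22.4 and 21.1 CPM in competent samples. Orc6 missed the threshold (log2 change 0.13, adjusted p = 0.0763), but passed with a trend along transcript length removed (0.42, adjusted p = 1.2e-05). The member lowest per kb of transcript was Orc1, whose human protein varies over the cell cycle, with 1.43, 2.21 and 1.33 CPM in depleted samples, against 1.32, 1.13 and 1.33 CPM in competent samples. These values met at their edges, and Orc1 did not pass (log2 change 0.40, SE 0.231, adjusted p = 0.143). Orc2 had 33.9, 36.4 and 37.5 CPM in depleted samples, against 37.1, 34.6 and 39.1 CPM in competent samples. The Orc2 groups overlapped (adjusted p = 0.598), and 29.8% of its exon length overlaps Nif3l1 on the opposite strand. With the length trend removed, Orc2 passed as lower (log2 change -0.15, adjusted p = 0.039).

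Per kb of transcript, the 6 ORC genes summed to 68.0, 70.4 and 72.5 CPM per kb in depleted samples, against 57.5, 57.1 and 57.2 in competent samples. Orc4 took 27.2 ± 0.718% of this sum in depleted cells and 21.4 ± 0.929% in competent cells (SD, n = 3 each). Orc2 took 14.4 ± 0.307% in depleted cells and 18.1 ± 1.07% in competent cells (SD, n = 3 each). The share of Orc4 was higher in every depleted sample than in any competent one, and Orc1 made up at most 1.04% of the sum in depleted samples and 0.77% in competent samples.

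The licensing factor and its inhibitor moved apart. Cdt1 (chromosome 8, 122568015 to 122573554), which brings MCM2-7 to ORC, had 21.2, 22.2 and 22.9 CPM in depleted samples, against 13.9, 14.6 and 13.3 CPM in competent samples. The groups were well separated, and the rise was 1.59-fold (log2 change 0.67, SE 0.0656, adjusted p = 8.34e-07). Gmnn, which encodes geminin, had 10.9, 11.1 and 10.2 CPM in depleted samples, against 13.4, 14.1 and 15.9 CPM in competent samples. Gmnn fell 1.36-fold (log2 change -0.44, SE 0.0844, adjusted p = 0.0004), a call lost once a trend with transcript length was removed (log2 change -0.12, adjusted p = 0.248), whereas the Cdt1 change was then 0.71. The ratio of Cdt1 to Gmnn, in CPM per kb, was 1.00, 1.03 and 1.15 in depleted samples and 0.534, 0.530 and 0.431 in competent samples. Every depleted ratio lay above every competent one. Cdc6, the ATPase that joins ORC to load the helicase, had 3.72 to 4.47 CPM in depleted and 3.67 to 3.88 CPM in competent samples, which overlapped (log2 change 0.17, adjusted p = 0.238).

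The MCM2-7 helicase genes kept nearly the same total before removal of any trend with transcript length. Summed per kb they gave 101, 95 and 99.5 CPM per kb in depleted samples, against 101, 102 and 104 in competent samples. Within that total, subunits moved in opposite directions. Mcm6 had 67.2, 61.8 and 64.5 CPM in depleted samples, against 80.9, 79.0 and 83 CPM in competent samples, a fall of 1.26-fold (adjusted p = 2.41e-05). Mcm7, the highest licensing gene per kb, had 94.6, 91.0 and 97.7 CPM in depleted samples, against 84.4, 82.7 and 81.8 CPM in competent samples, a rise of 1.14-fold (adjusted p = 0.00154). Neither pair of groups overlapped. The ratio of Mcm6 to Mcm7 per kb averaged 0.695 ± 0.026 in depleted cells and 0.993 ± 0.0341 in competent cells (SD, n = 3 each). The pseudogene Gm5487 is 97.7% identical to Mcm7 over 2157 nt and drew 189 counts over the depleted and 130 over the competent samples, against 8759 and 8878 for Mcm7 itself, so reads could be shared. Mcm5 fell by 0.13 on the log2 scale (adjusted p = 0.0444), but DESeq2 did not call it (adjusted p = 0.122), nor was it called without a filter on low counts (0.0613) or without any 1 of competent replicates 2 and 3 or depleted replicates 1, 2 and 3 (0.0803 to 0.117). Its values were 28.9, 29.6 and 29.1 CPM in depleted samples, against 30.3, 33.1 and 32.4 CPM in competent samples. With the length trend removed, the fall of Mcm5 was larger (log2 change -0.23, adjusted p = 0.00128). Mcm2 had 51.5, 45.3 and 49.1 CPM in depleted samples, against 51.1, 51.7 and 51.8 CPM in competent samples. Mcm2 overlapped between groups and did not pass (log2 change -0.08, adjusted p = 0.174). Mcm3 had 34.2, 30.5 and 31.4 CPM in depleted samples, against 30.4, 32.5 and 34.9 CPM in competent samples. Mcm4 had 38.4, 38.7 and 38.8 CPM in depleted samples, against 37.9, 38.9 and 42.0 CPM in competent samples. Both overlapped and did not pass (log2 changes -0.03 and -0.04). With the length trend removed, 4 of the 6 MCM2-7 genes fell (66.7%, against 35.0% of all genes) and 1 rose. The median log2 change of the MCM2-7 genes was then -0.17, and Mcm2 and Mcm4 passed as lower (-0.18 and -0.15).

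**Figure D2:**
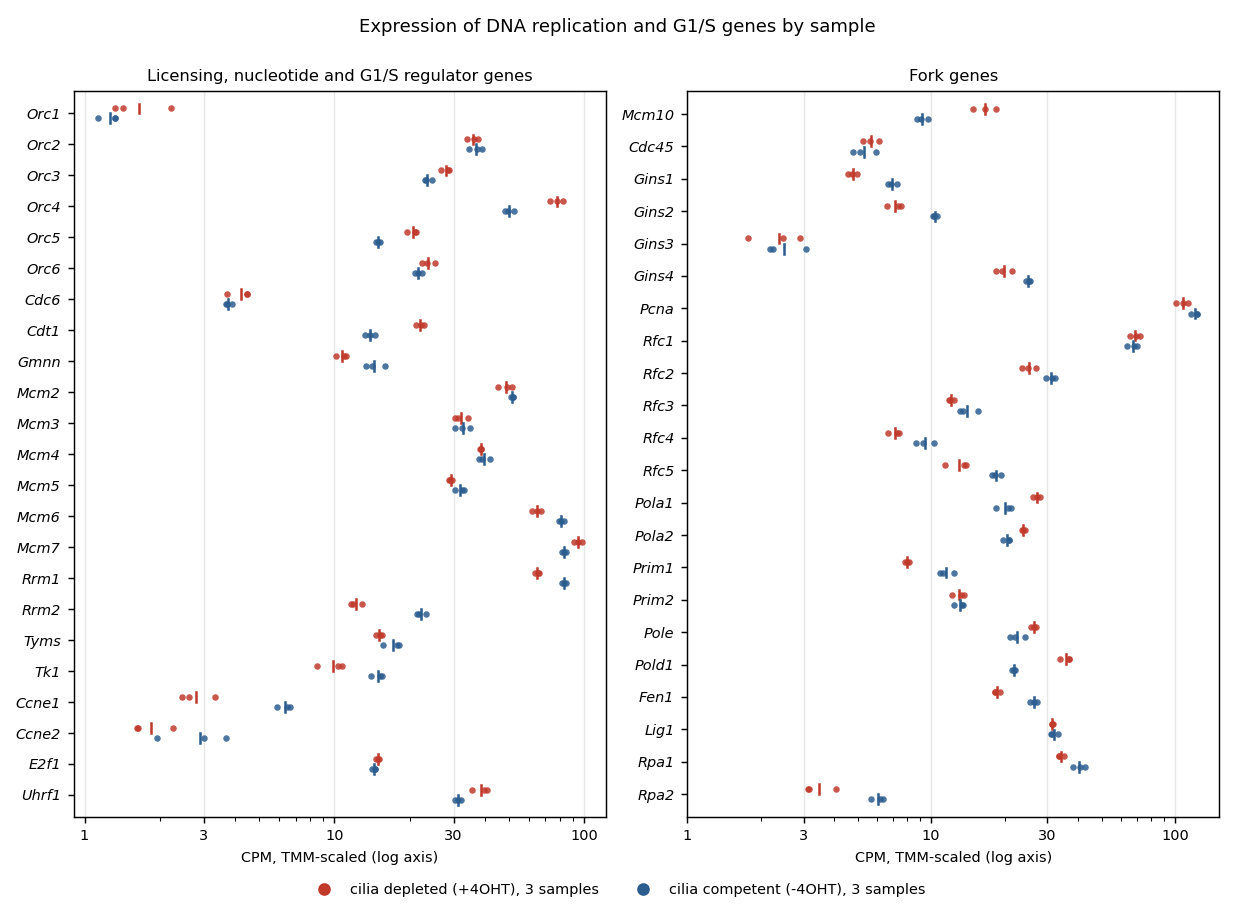
TMM-scaled CPM (x axis, log scale) of every gene in each of the 3 depleted (upper points of a row) and 3 competent samples (lower points); vertical ticks are means. The groups are well apart for Orc4, Cdt1, Rrm2, Ccne1, Mcm10 and Pold1, and for Mcm2, Mcm3, Mcm4, Orc2, Rfc1, Prim2 and Lig1 the groups overlap.

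The factors that turn loaded MCM2-7 into a moving helicase did not move as a unit. Mcm10 (chromosome 2, 4989714 to 5012791), which is needed to start the assembled helicase, had 18.5, 16.6 and 14.8 CPM in depleted samples, against 9.13, 8.74 and 9.72 CPM in competent samples. All depleted samples were above all competent ones, and the rise of 1.8-fold was the largest rise among the 45 genes (log2 change 0.85, SE 0.0919, adjusted p = 2.18e-06). Cdc45, a core part of the helicase, had 5.27 to 6.10 CPM in depleted and 4.79 to 5.97 CPM in competent samples and did not pass (adjusted p = 0.502). Of the 4 GINS subunits, 3 fell (75.0%, against 34.3% of all genes) and 1 did not pass. Gins2 had 7.29, 6.58 and 7.5 CPM in depleted samples, against 10.2, 10.3 and 10.6 CPM in competent samples, a fall of 1.46-fold (adjusted p = 0.00011). Its value is uncertain because 67.3% of its exon length overlaps Gse1 on the opposite strand, Gse1 moved the other way (log2 change 1.94), and the strand setting of the counting is not given in the sources used here. Gins1 had 4.95, 4.58 and 4.76 CPM in depleted samples, against 7.25, 6.82 and 6.67 CPM in competent samples. Gins4 had 21.4, 18.5 and 19.6 CPM in depleted samples, against 25.5, 24.4 and 25.2 CPM in competent samples. Gins1 and Gins4 fell 1.45-fold and 1.27-fold (adjusted p of 0.000382 and 0.000354), yet neither passed after removal of the length trend (adjusted p of 0.087 and 0.4). Gins3 had 1.78, 2.46 and 2.89 CPM in depleted samples, against 3.08, 2.24 and 2.18 CPM in competent samples, which overlapped (adjusted p = 0.857). GINS mRNA summed to 21.8 ± 1.23 CPM per kb in depleted cells and 28.6 ± 0.738 CPM per kb in competent cells (SD, n = 3 each), and Gins4 alone supplied over 64% of it in every sample.

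Among the polymerases, genes of the large catalytic subunits rose and a primase gene fell. Pold1 (chromosome 7, 44532746 to 44548849), the catalytic subunit of the lagging-strand polymerase delta, had 33.7, 36.9 and 36.7 CPM in depleted samples, against 21.5, 22.1 and 21.9 CPM in competent samples. The rise was 1.64-fold with no overlap (log2 change 0.72, SE 0.0555, adjusted p = 8.54e-08). Pola1, the catalytic subunit of polymerase alpha, rose 1.35-fold and its partner Pola2 rose 1.17-fold (adjusted p of 4.56e-05 and 0.00274). Pole, the catalytic subunit of the leading-strand polymerase epsilon and the longest transcript of the list at 7163 nt, rose 1.17-fold (adjusted p = 0.00623), but its log2 change was -0.02 with the length trend removed. Prim1, the primase that makes the RNA primer, had 7.84, 8.14 and 7.96 CPM in depleted samples, against 11.2, 12.4 and 10.9 CPM in competent samples, a fall of 1.44-fold (adjusted p = 0.000101). The ratio of Prim1 to Pola1 per kb was 0.996 ± 0.0139 in depleted cells and 1.94 ± 0.174 in competent cells (SD, n = 3 each). With the length trend removed, the log2 change of Prim1 was -0.32, against -0.53 with the trend left in. That of Pola1 was then 0.24, against 0.43. Prim2, the other primase subunit, averaged 13.1 CPM in both groups and had an adjusted p of 0.979.

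Genes of the clamp, 4 of 5 subunits of its loader and both listed subunits of the single-strand binding protein were lower. Pcna, the member with the most mRNA per kb, had 101, 108 and 113 CPM in depleted samples, against 116, 123 and 123 CPM in competent samples. Pcna fell by 0.17 on the log2 scale (adjusted p = 0.00765), and after removal of the length trend its log2 change was 0.06 (adjusted p = 0.247). A pseudogene, Pcna-ps2, is 99.2% identical to Pcna over 781 nt and was not analysed here. Of the 5 RFC subunits, which open PCNA and close it around DNA, 4 fell (80.0%, against 34.3% of all genes). Rfc5 had 11.4, 13.6 and 13.9 CPM in depleted samples, against 17.8, 19.4 and 18.3 CPM in competent samples. Rfc4 had 7.41, 7.26 and 6.63 CPM in depleted samples, against 10.3, 8.66 and 9.24 CPM in competent samples. Rfc5 fell 1.42-fold and Rfc4 1.33-fold, with no overlap (adjusted p of 7.98e-05 and 0.00234). Rfc2 had 23.5, 24.9 and 26.9 CPM in depleted samples, against 31.4, 29.7 and 32.2 CPM in competent samples. Rfc3 had 11.9, 12.4 and 11.8 CPM in depleted samples, against 15.5, 13.5 and 13.1 CPM in competent samples. Rfc2 fell 1.24-fold and Rfc3 1.17-fold (adjusted p of 0.000617 and 0.0272), and 15.1% of the Rfc2 exon length overlaps Lat2 on the opposite strand. Rfc1 had 72.1, 68.9 and 65.4 CPM in depleted samples, against 63.6, 68.2 and 70.0 CPM in competent samples, which overlapped (log2 change 0.03, and -0.02 with upper-quartile scaling). Rfc3 was not called with DESeq2 (adjusted p = 0.0644), without competent replicate 1 (0.133), without depleted replicate 1 (0.0635) or without depleted replicate 3 (0.0706). Neither Rfc3 nor Rfc4 passed after removal of the length trend (log2 changes 0.06 and -0.10). Rfc1 then passed as lower (log2 change -0.14, adjusted p = 0.0139), and 3 of the 5 RFC genes fell (60.0%, against 35.0% of all genes). RFC mRNA summed to 39.1 ± 0.577 CPM per kb in depleted cells and 45.3 ± 0.845 CPM per kb in competent cells (SD, n = 3 each), while the share of the large subunit Rfc1 was 37.1 ± 1.64% in depleted and 31.3 ± 1.98% in competent cells. Rpa2, a subunit of the protein that coats single-stranded DNA, had 3.17, 4.08 and 3.14 CPM in depleted samples, against 5.67, 6.20 and 6.37 CPM in competent samples. Rpa2 fell 1.75-fold without overlap (log2 change -0.81, SE 0.13, adjusted p = 8.94e-05), and Rpa1, its large partner, fell 1.19-fold (adjusted p = 0.00102). Fen1, the flap nuclease of lagging-strand maturation, fell 1.42-fold to 18.6 ± 0.466 CPM in depleted cells, against 26.4 ± 0.938 CPM in competent cells (SD, n = 3 each), but 78.8% of its exon length overlaps an opposite-strand gene. Lig1, the ligase that seals the same fragments, averaged 31.4 CPM in depleted and 31.8 CPM in competent cells (adjusted p = 0.771).

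All 4 nucleotide synthesis genes were lower in depleted cells. Rrm2 (chromosome 12, 24708241 to 24714146), the subunit of ribonucleotide reductase that is made in S phase, had 11.7, 11.9 and 12.9 CPM in depleted samples, against 21.5, 21.8 and 23.3 CPM in competent samples. The groups lay far apart, and Rrm2 fell 1.82-fold (log2 change -0.87, SE 0.0688, adjusted p = 1.08e-07). Rrm1, the large reductase subunit and the highest of the group per kb, had 65.7, 63.4 and 65.3 CPM in depleted samples, against 81.3, 84.7 and 83.4 CPM in competent samples, a fall of 1.28-fold (adjusted p = 4.68e-06). The ratio of Rrm2 to Rrm1 per kb was 0.325, 0.341 and 0.361 in depleted samples and 0.483, 0.470 and 0.509 in competent samples, with every depleted ratio below every competent one. Set against Rrm2b, the alternative small subunit used outside S phase, Rrm2 per kb stood at 1.21, 1.24 and 1.37 in depleted samples and 1.97, 1.97 and 2.04 in competent samples. Tk1, the thymidine salvage kinase, had 8.56, 10.7 and 10.3 CPM in depleted samples, against 14.0, 15.3 and 15.5 CPM in competent samples, a fall of 1.51-fold (adjusted p = 5.72e-05). Tyms, which makes thymidylate, had 14.7, 15.2 and 15.5 CPM in depleted samples, against 18.2, 15.6 and 17.8 CPM in competent samples. The Tyms groups came within 0.1 CPM of each other, and its fall of 1.13-fold (adjusted p = 0.0447) did not stand with DESeq2 (adjusted p = 0.103), limma-voom (0.0542), a replicate block (0.0505) or without any 1 of competent replicates 1 and 3 or depleted replicates 1, 2 and 3 (0.059 to 0.147). Rrm1, Rrm2, Tk1 and Tyms all fell with the length trend removed, with log2 changes of -0.49, -0.82, -0.34 and -0.27. Pseudogene copies of at least 95% identity cover 19.1% of the Rrm2 transcript and 17.4% of that of Tyms, as others do 44.3% of Uhrf1, 26.2% of Cdc6 and 21.2% of Rfc5, so these counts could be shared with copies.

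Of 12 further genes of nucleotide metabolism, listed by role, 1 rose, 10 fell and 1 missed the threshold, around a median log2 change of -0.28. These are 8.33% higher and 83.3% lower, against 34.9% and 34.3% of all genes. The list was chosen with earlier results of these data known, so it is no independent check of the nucleotide members. Dtymk, which phosphorylates thymidylate, had 15.8, 14.8 and 15.8 CPM in depleted samples, against 30.1, 30.6 and 30.6 CPM in competent samples, a fall of 1.97-fold (adjusted p = 5.49e-09). Nme1, a nucleoside diphosphate kinase, fell 1.71-fold and Dut, which destroys dUTP, fell 1.63-fold (adjusted p of 1.76e-08 and 5.05e-07). Cad, which starts pyrimidine synthesis, rose 1.22-fold (adjusted p = 0.00043), and its log2 change was 0.04 with the length trend removed. Dctd did not pass (log2 change -0.23, adjusted p = 0.0968). Samhd1, which breaks deoxyribonucleotides down rather than making them, was among those that fell (log2 change -0.32, adjusted p = 0.000157). Over the 16 members and further genes of nucleotide metabolism, 14 fell (87.5%), and 14 also fell with the length trend removed, where 35.0% of all genes did.

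**Figure D3:**
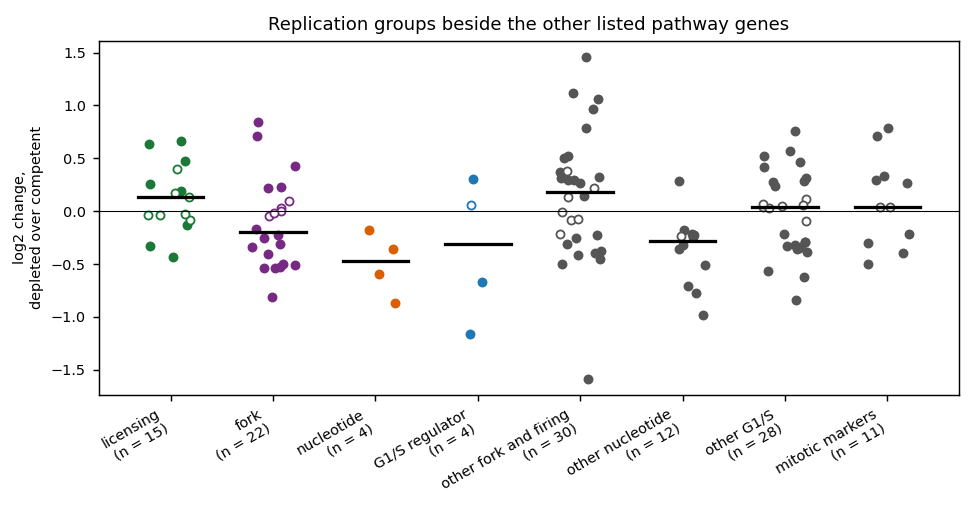
Log2 change, depleted over competent (y axis), of each gene in the 4 functional groups and in 4 further lists; filled points passed an adjusted p below 0.05, open points did not, and black bars are medians. The nucleotide group has the lowest median, at -0.47, and the further nucleotide genes lie at -0.28, while the other lists have genes well above and below 0.

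Both E-type cyclins were lower. Ccne1 (chromosome 7, 38097984 to 38107534), the cyclin that activates CDK2 at the start of S phase, had 2.46, 2.62 and 3.34 CPM in depleted samples, against 5.90, 6.62 and 6.45 CPM in competent samples. Every depleted sample lay below every competent one, and the fall of 2.23-fold was the largest change among the 45 genes (log2 change -1.16, SE 0.135, adjusted p = 4.37e-06). Ccne2 had 2.26, 1.62 and 1.64 CPM in depleted samples, against 3.02, 1.95 and 3.69 CPM in competent samples, and the groups overlapped. Ccne2 fell 1.59-fold (log2 change -0.67, SE 0.232, adjusted p = 0.0196), a call lost without competent replicate 3 (adjusted p = 0.113), depleted replicate 2 (0.0724) or depleted replicate 3 (0.0733), and 17.4% of its exon length overlaps Ints8 on the opposite strand. E2f1, the transcription factor after which the programme is named, had 14.7, 15 and 15.1 CPM in depleted samples, against 14.5, 14.5 and 14.2 CPM in competent samples. These E2f1 values did not overlap, yet they differed by a log2 change of only 0.05 and did not pass (adjusted p = 0.476). Uhrf1, which keeps DNA methylation through replication, had 39.7, 40.8 and 35.6 CPM in depleted samples, against 30.4, 31.2 and 32 CPM in competent samples, a rise of 1.24-fold (adjusted p = 0.000363).

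The 28 further G1/S genes held 9 that rose, 12 that fell and 7 that missed the threshold, around a median of 0.03 on the log2 scale. These are 32.1% higher and 42.9% lower, against 34.9% and 34.3% of all genes, and with the length trend removed 6 rose and 16 fell, around a median of -0.17. The largest falls were those of Cks1b (1.79-fold), a small CDK-binding protein, Cdk4 (1.54-fold), the partner kinase of D-type cyclins, and Ccnd2 (1.48-fold), with adjusted p of 5.19e-08, 5.66e-08 and 8.73e-08; 19.7% of the Cdk4 exon length overlaps Tspan31 on the opposite strand. The largest rises were those of Cdkn1a (1.69-fold), which encodes the CDK inhibitor p21, Fbxo5 (1.48-fold), an inhibitor of the anaphase-promoting complex, and Slbp (1.43-fold), which binds histone mRNA, with adjusted p of 7.8e-09, 0.00217 and 2.07e-06. The 30 further fork and origin-firing genes held 14 that rose, 9 that fell and 7 that missed it, around a median of 0.19. That is 76.7% called, near the 69.2% of all genes, and with the length trend removed 10 rose and 7 fell. Ticrr, which with its partners brings CDC45 to origins, had 12.5, 12.7 and 12.1 CPM in depleted samples, against 3.52, 5.49 and 4.54 CPM in competent samples, a rise of 2.75-fold (adjusted p = 2.62e-07). Cdc7, the kinase that fires licensed origins, rose 2.08-fold (adjusted p = 5.05e-05), and Mcm9, an MCM paralog outside the replicative ring, rose 2.17-fold (adjusted p = 1.95e-07), although 19.2% of the Mcm9 exon length overlaps Asf1a on the opposite strand. Rpa3, the smallest RPA subunit, had 3.6, 3.46 and 3.77 CPM in depleted samples, against 12.2, 9.93 and 10.4 CPM in competent samples, a fall of 3.00-fold (adjusted p = 3.96e-08). Pold2 and Rnaseh2a fell 1.41-fold and 1.37-fold (adjusted p of 6.85e-06 and 4.26e-05). Among 11 mitotic markers, 5 rose, 4 fell and 2 missed it, around a median of 0.04. These are 45.5% higher and 36.4% lower, against the same 34.9% and 34.3%, and with the length trend removed 3 rose and 3 fell, around a median of -0.03. Top2a and Cenpf then had log2 changes of 0.09 and -0.03 and did not pass. Mki67, a label of cycling cells, Cenpe, a kinetochore motor, and Aurka, a spindle kinase, rose 1.72-fold, 1.64-fold and 1.26-fold (adjusted p of 4.38e-06, 5.27e-06 and 0.000644). The mitotic cyclin genes Ccnb2 and Ccnb1 and their partner kinase Cdk1 fell 1.41-fold, 1.31-fold and 1.23-fold (adjusted p of 4.39e-06, 3.54e-05 and 0.000398). With the length trend removed, the log2 change of Mki67 was 0.48, against 0.79 with the trend left in, and that of Ccnb2 was -0.27, against -0.50.

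**Figure D4:**
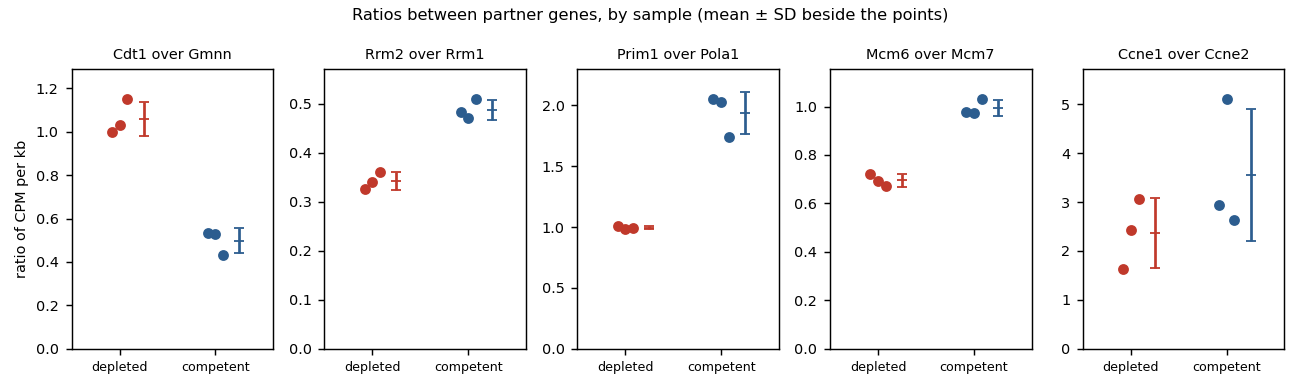
Ratios of CPM per kb between partner genes in each sample (y axis starting at 0), with the mean ± SD of 3 samples beside the points; depleted samples are on the left of each panel and competent samples on the right. The groups are apart for Cdt1 over Gmnn, Rrm2 over Rrm1, Prim1 over Pola1 and Mcm6 over Mcm7, and overlap for Ccne1 over Ccne2.

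The direction of change moved with transcript length, as it did over the whole table. Longer transcripts had higher log2 changes, with a Spearman's rho of 0.36 across the 45 genes and 0.32 across 13831 genes tested, a description across genes that share libraries. Of the 15 shortest members, with transcripts of 1087 to 2189 nt, 2 rose and 10 fell, with a median log2 change of -0.34. Of the 15 longest, of 3371 nt or more, 6 rose and 5 fell, with a median of -0.04. All genes tested within the same ranges of length had medians of -0.20 and 0.15. With the trend removed from each library by a loess curve, 11 members rose and 19 fell (24.4% and 42.2%), against 33.6% and 35.0% of all genes. The medians were then 0.12 for licensing, -0.08 for the fork, -0.41 for the nucleotide group and -0.37 for G1/S regulators. Gmnn, Gins1, Gins4, Pcna, Rfc3, Rfc4 and Pole lost their calls with its removal. Orc2, Mcm2, Mcm4 and Rfc1 passed once it was removed, as lower in depleted cells (log2 changes -0.15, -0.18, -0.15 and -0.14), and Orc6 passed as higher. With the trend left in, Mcm2 also passed under upper-quartile scaling (log2 change -0.13, adjusted p = 0.0386) and Orc6 without depleted replicate 2 (0.17, adjusted p = 0.0483). The part of RNA quality in this trend was not tested.

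**Figure D5:**
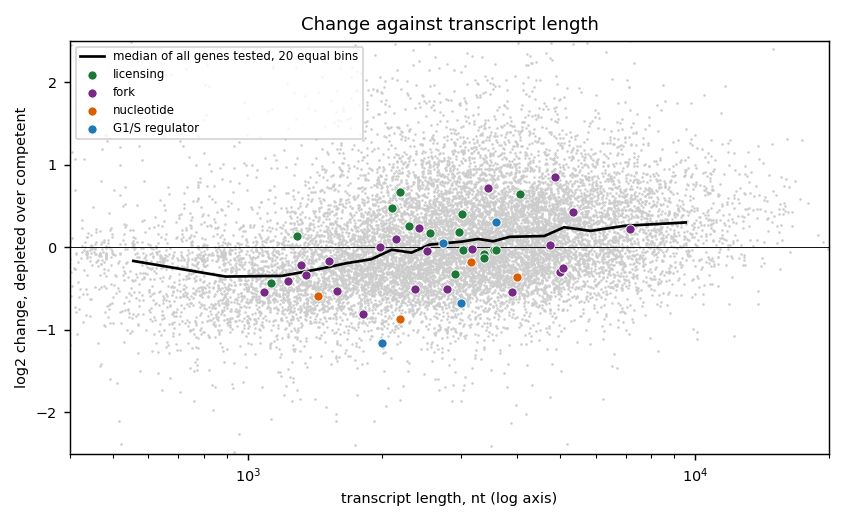
Log2 change, depleted over competent (y axis), against transcript length in nt (x axis, log scale); grey dots are all genes tested within the plotted range, the black line joins medians of 20 bins of equal gene number, and coloured dots are the 45 genes. Rrm2 and Ccne1, near 2000 nt, lie far below the line, and Cdt1 and Orc5, at like lengths, lie above it.

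RefSeq windows (GRCm38.p6, from 250 bases before to 50 after a start) were at hand for 36 of the 45 genes. They were searched on both strands for the E2F-type letters TTTCGCGC, TTTGGCGC, TTTCCCGC and TTTGGCGG and for CCAAT. The second of these and the reverse complement of the first share letters in the run TTTGGCGCGAAA. A gene with several windows counted if any of them held a match. E2F-type letters were found in 17 of the 36 genes (47.2%), against 2.7% of 27025 genes with a window and 4.94% of the 10365 that were also tested. The list was drawn up in part as E2F-type genes, so nothing is read from that excess. Among the members, the letters were in 8 of 10 that rose, 4 of 15 that fell and 5 of 11 that did not pass. By group, they were in 9 of 13 licensing genes, 7 of 16 fork genes, 1 of 3 G1/S regulators and 0 of 4 nucleotide genes, all of which fell. Direction of change is thus mixed with functional group, and no split by direction was made over all genes tested. Nothing is therefore read from the difference between members that rose and fell. CCAAT was in 22 of 36 members (61.1%), against 41.1% of all genes with a window. A match is only a run of letters, and a window with none says nothing about binding of a factor elsewhere.

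Windows of 5 genes are shown: those with the strongest licensing, polymerase and nucleotide changes, a helicase subunit that fell, and Pola1, a further polymerase gene that rose. They are written 5′ to 3′ on the strand of the gene, and capitals mark E2F-type letters. In Cdt1 and Pold1, which rose, the match begins 32 and 39 bases after the start, and in Pola1, which also rose, 138 bases before it. Mcm10 and Orc5 rose as well, but their windows hold no match and are not shown.
Cdt1 (chr8:122567765-122568064, plus strand): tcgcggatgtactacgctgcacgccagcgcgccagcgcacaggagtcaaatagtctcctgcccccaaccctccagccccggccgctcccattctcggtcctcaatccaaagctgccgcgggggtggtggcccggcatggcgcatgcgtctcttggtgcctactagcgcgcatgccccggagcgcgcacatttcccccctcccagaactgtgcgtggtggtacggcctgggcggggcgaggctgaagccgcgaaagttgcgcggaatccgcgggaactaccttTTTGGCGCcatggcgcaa
Pold1 (chr7:44548766-44549065, minus strand): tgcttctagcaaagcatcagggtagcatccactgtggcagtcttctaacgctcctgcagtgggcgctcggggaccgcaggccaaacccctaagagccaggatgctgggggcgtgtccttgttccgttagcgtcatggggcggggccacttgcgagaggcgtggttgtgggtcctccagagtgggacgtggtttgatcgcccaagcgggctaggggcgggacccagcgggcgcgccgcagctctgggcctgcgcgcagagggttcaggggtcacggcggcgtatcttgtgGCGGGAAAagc
Pola1 (chrX:93632106-93632405, minus strand): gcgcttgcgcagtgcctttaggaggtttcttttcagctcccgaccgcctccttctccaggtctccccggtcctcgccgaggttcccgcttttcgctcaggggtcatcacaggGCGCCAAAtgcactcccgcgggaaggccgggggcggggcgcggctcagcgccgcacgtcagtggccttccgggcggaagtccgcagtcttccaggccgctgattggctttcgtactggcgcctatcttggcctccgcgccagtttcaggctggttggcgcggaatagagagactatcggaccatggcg
Mcm6 (chr1:128359656-128359955, minus strand): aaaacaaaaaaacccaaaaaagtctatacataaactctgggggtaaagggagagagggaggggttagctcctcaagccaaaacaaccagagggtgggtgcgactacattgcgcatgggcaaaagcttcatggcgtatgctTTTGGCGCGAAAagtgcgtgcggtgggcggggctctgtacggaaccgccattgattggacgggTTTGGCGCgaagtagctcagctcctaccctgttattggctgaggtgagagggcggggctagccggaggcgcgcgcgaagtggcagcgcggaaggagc
Rrm2 (chr12:24708004-24708303, plus strand): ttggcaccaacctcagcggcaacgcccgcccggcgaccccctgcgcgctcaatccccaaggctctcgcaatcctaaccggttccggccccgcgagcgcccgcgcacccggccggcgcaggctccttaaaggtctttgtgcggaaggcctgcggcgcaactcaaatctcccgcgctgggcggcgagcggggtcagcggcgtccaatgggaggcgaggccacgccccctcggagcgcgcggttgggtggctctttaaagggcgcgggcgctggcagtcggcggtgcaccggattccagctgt
Mcm6, which fell, holds matches in 2 places, 110 and 47 bases before the start, the first being that run of overlapping letters. Rrm2, which fell most among the nucleotide genes, holds none in this window and holds CCAAT 1 time.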

How the data were processed

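The authors deposited a table of raw counts for each gene, in whole numbers, with a column for each of the 6 samples. The labels' protocols describe poly-A selection and a directional library kit. GRCm38 was the build and the software comprised DESeq2 1.34.0, featureCounts, STAR 2.7.1a, cutadapt 1.16, MultiQC 1.3 and FastQC 0.11.9, per the submitters' processing notes; order, annotation and strand setting are not given in the sources used here. Columns were matched to samples by group and replicate number, with those named WT taken as competent and those named KO as depleted.

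The counts went into edgeR 4.0.16 under R 4.3.3 (filterByExpr, TMM, quasi-likelihood F-test, two-sided, group as the only term, all 6 samples), with Benjamini-Hochberg adjustment over 13839 genes and a threshold of 0.05. Fold changes are depleted over competent and SE values are on the log2 scale. Symbols, coordinates and lengths of the principal transcript came from GENCODE M21, which matched 32009 identifiers. The code was tested on simulated counts before use. Samples of a group differed by a chi-square of 5.33 to 9.44 per degree of freedom over genes, so none was a copy of another.

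The members, the lists and the tests were chosen with earlier results of these data known. All 45 members could be named. Values per sample are given for up to 4 called members of each group with the largest change, the highest per kb, and complex subunits set side by side. Up to 3 rises and 3 falls are named from each further list. Other genes were named after their values were seen. Alternatives were other scalings, DESeq2 1.42.0, limma-voom (limma 3.58.1), other filters, a replicate block, leaving out each sample, other thresholds and removal of a trend with transcript length (loess, span 0.3). Members with copies at 95% identity or more were looked for among GENCODE transcripts.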

Additional observations from a re-analysis of the deposited data

How the results depend on the processing

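Of the 32 members called, 22 kept their call and direction in all 14 other fits; the other 10 were Gmnn, Mcm5, Gins1, Gins4, Pcna, Rfc3, Rfc4, Pole, Tyms and Ccne2. Requiring a change of at least 1.5-fold left 3936 genes called (2332 higher, 1604 lower) and 9 members (4 higher, 5 lower). Leaving out 1 sample gave 8929 to 9333 genes and 28 to 31 members. Under upper-quartile scaling the median log2 change was -0.10 over all members and 0.08 for licensing. With the length trend removed it was -0.10 over all members and -0.08 for the fork. Leaving out 1 sample gave medians of -0.09 to -0.04 over all members, 0.08 to 0.15 for licensing and -0.42 to -0.21 for G1/S regulators. Signs turned with the length trend removed for Pcna (0.06), Rfc3 (0.06), Pole (-0.02), Prim2 (0.09) and Rfc1 (-0.14), and for Rfc1 with upper-quartile scaling (-0.02). Prim2 was at 0.00 with the filter of 1 CPM in 3 samples. Leaving out 1 sample gave ranges across 0 for members that were not called: Orc2 -0.09 to 0.00, Mcm3 -0.08 to 0.02, Mcm4 -0.07 to 0.00, Gins3 -0.21 to 0.13, Rfc1 -0.01 to 0.07, Prim2 -0.04 to 0.04 and Lig1 -0.04 to 0.00. The causes were not tested. Same-numbered samples did not deviate together (r of -0.028, 0.013 and -0.016). With 3 samples a group and a spread that may be technical, this cannot exclude pairing. With the replicate number as a block, 9526 genes and 31 members were called, and Tyms was lost (adjusted p = 0.0505). Depth limits the low members, of which Orc1, Ccne2 and Gins3 had the largest SE.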
